A study of Mus musculus with 294 samples.

Results

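A set of 10 genes of the Wnt pathway, chosen by name, was described across single neural crest lineage cells of the embryonic mouse heart: the ligand Wnt5a, the receptor Fzd2, the secreted modulators Sfrp1, Sfrp2, Dkk2 and Dkk3, the membrane proteins Apcdd1 and Tnfrsf19, and the intracellular proteins Axin2 and Lef1. All 10 were rows of the count table, which held 15124 genes. Of these, 9 reached 10 CPM (counts of a gene per 1000000 reads of the cell) in at least 10% of cells and are compared with the 8853 genes that did the same. The other, Dkk2, reached that level in 9.86% of cells and is described without that comparison.

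Wnt proteins are secreted signals that bind Frizzled receptors. In the beta-catenin branch, binding to a Frizzled and an LRP co-receptor frees beta-catenin to act with TCF/LEF transcription factors, while Wnt5a is best known for signalling that does not need beta-catenin. Secreted Frizzled-related proteins (Sfrp) bind Wnt proteins outside the cell, and Dickkopf proteins (Dkk) are a family of which some members block the LRP co-receptors. In the heart, cushion mesenchyme is the loose tissue from which the septum and valves of the outflow tract form, and part of it comes from the neural crest.

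Every cell came from mice of the genotype Wnt1-Cre; R26-EYFP, in which Cre recombinase under a Wnt1 promoter switches on a permanent yellow fluorescent label in the neural crest lineage. EYFP-positive cells from around the aorticopulmonary septum, of embryos of day 11.5, day 12.5, day 14.5 or day 17.5, were sorted, captured one by one on a Fluidigm C1 chip and sequenced as full-length cDNA. No label gives the age, animal or chip of a cell, no treatment or second genotype was included, and the label marks descent and not the present cell type. The cells were therefore 1 group and 1 sample, and no test between cells was made. For description they were split into 7 name series by the digit that opens a cell's name. What that digit stands for is not labelled, so a name series is neither a stage nor a batch here. The series held 58, 48, 38, 38, 34, 34 and 44 cells.

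A cell had between 34046 and 3033857 reads (median 1204543). Series 1 stood apart in depth of detection, with a median of 7718 genes per cell against 3123 to 4676.5 in the others. Its abundant genes also rarely fell to 0: the 10th percentile of their level, relative to the series mean, had a median of 2.43% in series 1 and of 0 in each other series. For abundant genes, the series 1 share at 10 CPM can thus be too high, and genes are called separating by shares at 100 CPM. Shares at 10 CPM are also given below as description, and those of series 1 carry this limit. Intervals on shares of cells are exact Clopper-Pearson 95% intervals. They treat cells as independent and cover counting error of cells only, not differences between animals, ages or chips, which are not labelled. No molecular identifiers were used, so reads of 1 molecule are not independent either.

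The label of cushion mesenchyme was checked against 15 marker genes of that tissue. A cell had 3 to 14 of them at 10 CPM or more, with a median of 10, and 97.6% of cells had at least 5. Postn, which encodes the matrix protein periostin, reached 10 CPM in 98% of cells and Col3a1, a fibrillar collagen gene, in 99.7%, while the transcription factor genes Msx1 and Msx2 reached it in 8.16% and 7.14%. Of 9 smooth muscle markers, Tpm2, Tagln, Myl9 and Acta2 reached 10 CPM in 61.9% to 78.9% of cells, Cnn1 in 42.9% and Actg2 in 24.5%, but Mylk, Myh11 and Des in only 10.9% to 13.6%. Markers of other types varied: of the epicardial genes, Tbx18 was in 51.7% of cells and Wt1 in 5.44%, and of the endothelial genes, Tek was in 29.6%, Pecam1 in 7.48% and Kdr in 2.38%. Of the cardiomyocyte genes, Tnnt2 was in 19.4% of cells and Actc1 in 16.3%, but Myl7, Myh7, Ttn, Myh6 and Nppa in only 1.02% to 4.08%. The immune cell gene Cx3cr1 was in 2.04%. A set of 13 cells, 5 in series 1 and 8 in series 2, had at least 3 glial markers, such as Sox10. The values below cover all cells, as the choice of members sets no limit on cell type. Most cells carried mesenchyme markers, and some smooth muscle markers were widespread while others were rare.

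Compared per kilobase of exon, which allows genes to be set beside each other, the mean levels spanned from Sfrp2 at 704 CPM per kb to Apcdd1 at 0.634 CPM per kb. Dkk3 was second at 132.2 CPM per kb, followed by Sfrp1 at 42 and Fzd2 at 29. Wnt5a and Tnfrsf19 were close, at 11.48 and 10.4 CPM per kb, then came Lef1 at 4.43, Dkk2 at 3.99 and Axin2 at 1.72. The secreted modulators thus held the top of the order, apart from Dkk2, and the classical feedback gene Axin2 was near its end. At 10 CPM, 4 members (Sfrp2, Sfrp1, Dkk3 and Fzd2) were present in at least 50% of cells. A cell had 0 to 10 members at that level, with a median of 4.

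**Figure D1:**
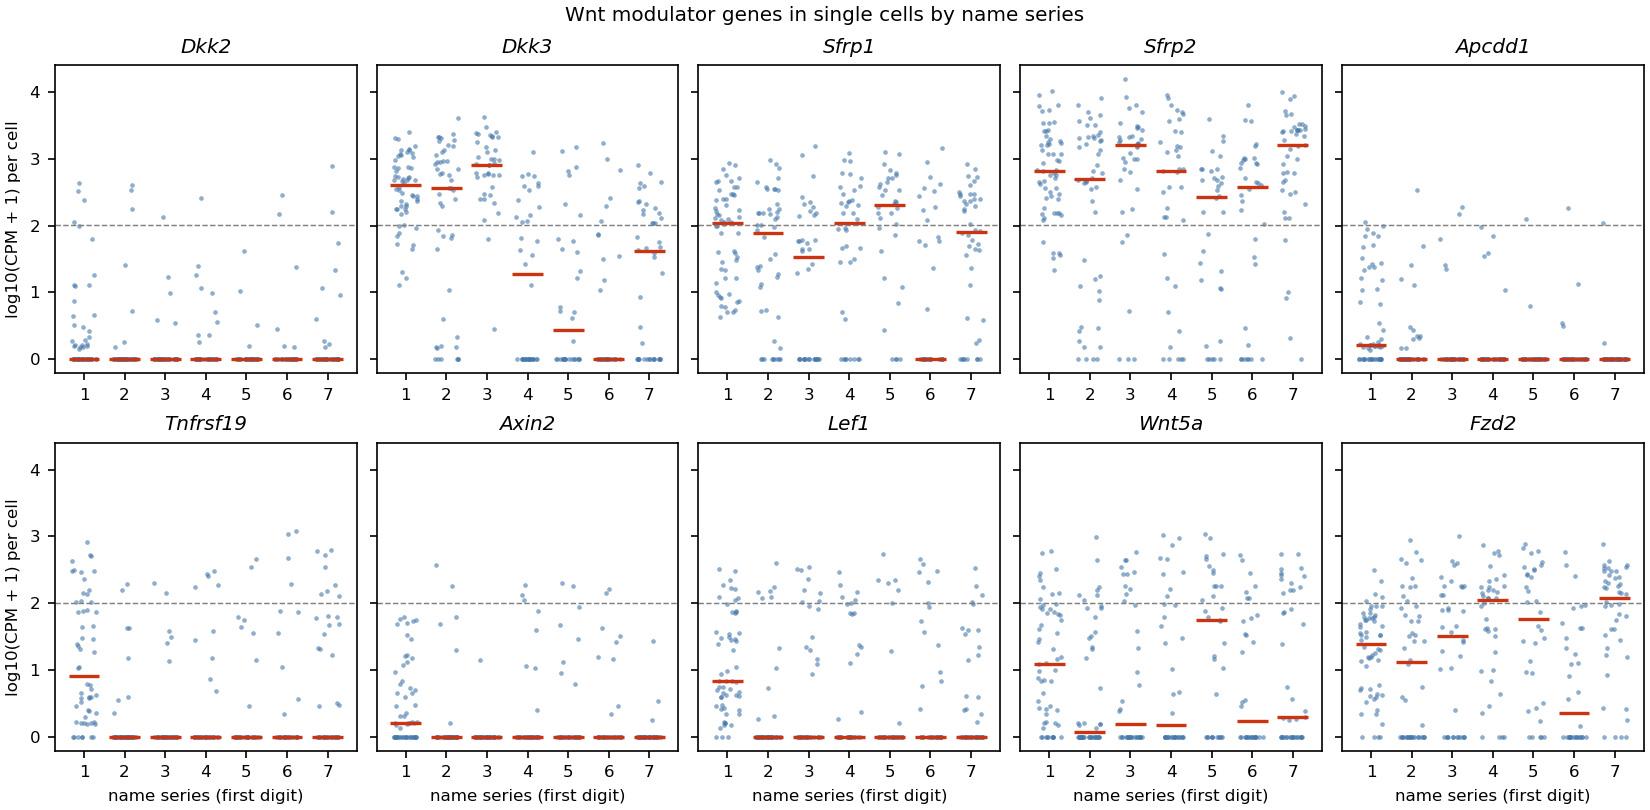
Each point is 1 cell, with the level of a gene as log10(CPM + 1) on the vertical axis and the name series on the horizontal axis, red bars mark series medians and the dashed line marks 100 CPM. Dkk3 medians are high in series 1 to 3 and low in series 4 to 7, whereas Dkk2 has a median of 0 in each series.

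Wnt5a, the only member that encodes a ligand, was expressed by part of the cells of each series. It lies on the plus strand of chromosome 14 (GRCm38, chr14:28504750-28527448). Across all cells its level ran from 0 to 1081 CPM with a median of 2.56 CPM, and 43.9% of cells (95% interval 38.1% to 49.8%) reached 10 CPM. Series 5 was highest, with a median of 54.1 CPM and 61.8% of cells at 10 CPM. Series 1 had a median of 11.48 CPM, and the other 5 had medians of 0.177 to 0.957 CPM with 35.4% to 41.2% of cells at 10 CPM. The intervals of the share at 10 CPM in series 5 (43.6% to 77.8%) and in the lowest, series 2 (22.2% to 50.5%), overlapped. In 5 of 7 series, at least 20% of the cells were at 100 CPM or more while at least 20% were under 10 CPM. Only 3.59% of the variance of its log2(CPM + 1) lay between series, below the median of 5.51% over all tested genes.

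Fzd2 encodes a Frizzled receptor, in a single-exon gene on chromosome 11 (chr11:102604396-102608058, plus strand). It reached 10 CPM in 64.3% of cells (58.5% to 69.8%), with a median of 32.8 CPM and a highest value of 1028 CPM. Series 7 and 4 had the highest medians, 120.5 and 109.4 CPM, and series 5 followed at 59 CPM. Medians were 31.4, 24.1 and 12.1 CPM in series 3, 1 and 2, and 1.55 CPM in series 6. At 100 CPM or more, the shares were 52.6%, 52.3% and 47.1% of cells in series 4, 7 and 5 but 8.62% and 8.82% in series 1 and 6. The intervals of series 4 (35.8% to 69%) and series 1 (2.86% to 19%) did not overlap. Series 1 had few cells with high Fzd2 although 69% of them reached 10 CPM.

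Dkk3 was the member that differed most between series. Its gene, which encodes a secreted Dickkopf family protein, lies on the minus strand of chromosome 7 (chr7:112116017-112159057). The median was 821 CPM in series 3, 408 CPM in series 1 and 367 CPM in series 2. It was 40.2 CPM in series 7, 18.9 CPM in series 4, 1.99 CPM in series 5 and 0 in series 6. Series 1 to 3 were thus high and series 4 to 7 low, but single cells overlapped, since each low series had a cell at 809.7 CPM or more and series 2 had cells at 0. At 100 CPM or more, shares ran from 94.7% of cells in series 3 (interval 82.3% to 99.4%) to 17.6% in series 6 (6.76% to 34.5%), a range of 77.1 percentage points. Of the variance of its log2(CPM + 1), 37.0% lay between series, at percentile 99.4 of the tested genes. In series 2, 4, 5 and 7 the gene also varied between cells, with at least 20% of them at 100 CPM or more and at least 20% under 10 CPM.

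The summed level of the 15 mesenchyme markers moved in part with Dkk3. Its series medians were 26701, 20319 and 18096 CPM in series 1 to 3, against 12976, 11820 and 11176 CPM in series 4, 5 and 7, but series 6, with the lowest Dkk3, had 18891 CPM. The sum gives most weight to abundant markers, and single markers went both ways. Dcn was at 100 CPM in 68.8% to 100% of cells in series 1 to 3 and in 5.88% to 36.4% in series 4 to 7. For Twist1 these shares were 10.4% to 26.3% and 34.1% to 55.3%, and for Hapln1 8.33% to 17.2% and 22.7% to 58.8%. Genes detected per cell followed the order of Dkk3 only in part. Series 3 had a median of 3300.5 genes and the highest Dkk3. Series 6 had the fewest genes, 3123, and the lowest Dkk3, and series 1 had the most, 7718, and high Dkk3. In the 75 cells with Pdgfra at 100 CPM or more and Acta2 under 10 CPM, Dkk3 reached 10 CPM in 52% (40.2% to 63.7%), compared with 73.1% of the other cells. These shares pool all series. At 100 CPM, Acta2 ran from 23.5% of cells in series 6 to 86.2% in series 1, and Pdgfra from 39.6% in series 2 to 79.5% in series 7. The contrast thus cannot be told apart from the difference between series. The part of cell makeup or of genes detected in the difference between series was not tested.

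**Figure D2:**
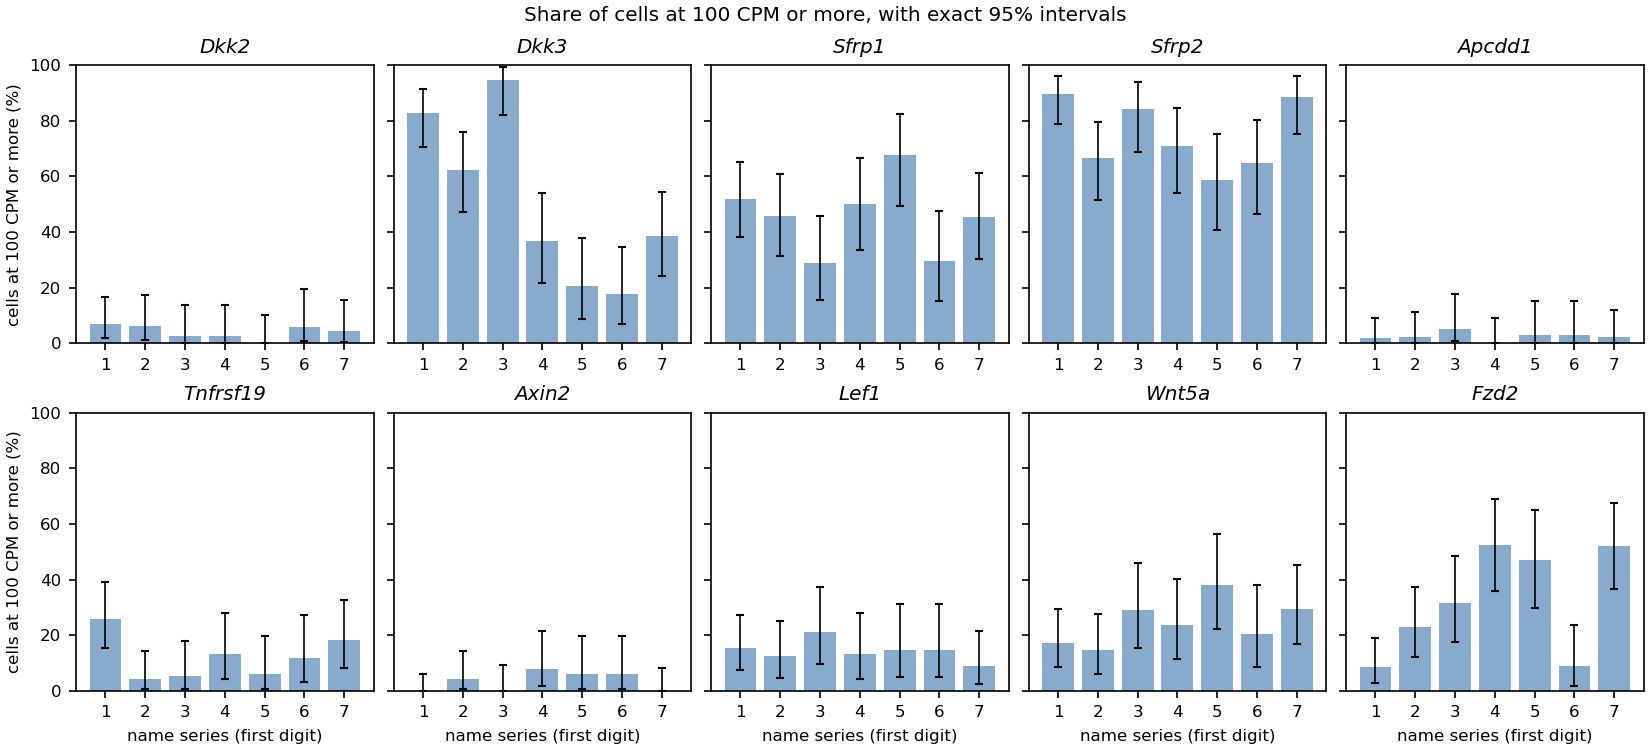
Bars give the percentage of cells at 100 CPM or more in each name series (horizontal axis) for each gene, and lines are exact 95% intervals for counting error. Dkk3 runs from 17.6% to 94.7% and Fzd2 from 8.62% to 52.6%, while Lef1 stays between 9.09% and 21.1%.

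Sfrp1 and Sfrp2 encode secreted Frizzled-related proteins and were the members found at 10 CPM in the most cells. Sfrp2 (chr3:83766321-83774316, plus strand) reached 10 CPM in 85% of cells (80.4% to 88.9%), with a median of 642 CPM and a highest value of 15514 CPM. Its series medians were 1607 and 1583 CPM in series 3 and 7, 658.3, 652 and 495 CPM in series 1, 4 and 2, and 378 and 269.7 CPM in series 6 and 5. Series 1 had no cell under 20.6 CPM, while each other series had cells at 0. Shares at 100 CPM or more ran from 58.8% in series 5 (40.7% to 75.4%) to 89.7% in series 1 (78.8% to 96.1%). Those intervals did not overlap, yet the range of 30.8 points fell short of the 40 points used to call a gene separating.

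Sfrp1 (chr8:23411502-23449632, plus strand) reached 10 CPM in 69.4% of cells (63.8% to 74.6%), with a median of 76.6 CPM and a highest value of 1529 CPM. Series 5 had the highest median, 201.5 CPM, and series 6 a median of 0 although one of its cells reached 1465 CPM. The other series lay between 33.4 and 108.4 CPM. Within series the gene was patchy: in 6 of 7, cells at 100 CPM or more and cells under 10 CPM each made up at least 20%, the most of any member. The series orders of both Sfrp genes differed, as series 5 was highest for Sfrp1 and lowest for Sfrp2.

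Dkk2, which encodes a secreted modulator of LRP co-receptors, was rare. The gene (chr3:132085292-132180304, plus strand) had no read in 76.5% of cells and reached 10 CPM in 9.86% (6.71% to 13.9%), with a highest value of 779.6 CPM. Its median was 0 in each series, and shares at 10 CPM ran from 2.94% in series 5 to 17.2% in series 1, with overlapping intervals (0.0744% to 15.3% and 8.59% to 29.4%). A single cell gave 75.2% of the summed CPM of Dkk2 in series 7 and 81.3% in series 3, so its series means rest on few cells.

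Apcdd1, a membrane protein that inhibits Wnt signalling, and Axin2, a scaffold of the complex that degrades beta-catenin and a widely used target gene of the pathway, were likewise sparse. Apcdd1 (chr18:62922231-62961179, plus strand) reached 10 CPM in 11.9% of cells (8.43% to 16.2%) and had a highest value of 335.03 CPM. In series 1 its share was 29.3% (18.1% to 42.7%), and in the others it was 2.27% to 13.2%. At 100 CPM or more, it was present in at most 2 cells of any series. Of its variance, 10.7% lay between series with all cells and 2.21% without series 1, the series with the most genes detected.

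Axin2 (chr11:108920349-108950783, plus strand) reached 10 CPM in 13.3% of cells (9.61% to 17.7%), up to 370.3 CPM. Its shares at 10 CPM were 22.4%, 20.6%, 17.6%, 15.8% and 10.4% in series 1, 6, 5, 4 and 2. Series 3 and series 7 had 1 cell each, or 2.63% (0.0666% to 13.8%) and 2.27% (0.0575% to 12%), and that cell gave 100% and 89.2% of the summed CPM of the series. The interval of series 1 (12.5% to 35.3%) lay above that of series 7 and overlapped that of series 3. At 100 CPM or more the order was another, with 0 of 58 cells in series 1, none in series 3 and 7, and the highest share, 7.89% (1.66% to 21.4%), in series 4.

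Tnfrsf19 encodes TROY, a receptor of the tumour necrosis factor receptor family that is known as a Wnt target gene. The gene (chr14:60963875-61046490, minus strand) reached 10 CPM in 26.5% of cells (21.6% to 32%), with a median of 0 and a highest value of 1223 CPM. Series 1 and 7 had the largest shares, 48.3% (35.0% to 61.8%) and 38.6% (24.4% to 54.5%), and series 2 the smallest, 10.4% (3.47% to 22.7%). At 100 CPM or more the same series were at the ends, with 25.9%, 18.2% and 4.17%. Of its variance, 13.9% lay between series, at percentile 89.9 of the tested genes, and 5.86% without series 1.

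Lef1 encodes a TCF/LEF transcription factor. The gene (chr3:131110471-131224356, plus strand) reached 10 CPM in 30.3% of cells (25.1% to 35.9%), with a median of 0 and a highest value of 551.05 CPM. Shares ran from 41.4% in series 1 (28.6% to 55.1%) to 14.6% in series 2 (6.07% to 27.8%), which did not overlap at the bounds. At 100 CPM or more they ran only from 9.09% in series 7 to 21.1% in series 3, with overlapping intervals (2.53% to 21.7% and 9.55% to 37.3%). Its between-series share of variance was 7.37%, or 2.99% without series 1. For Lef1, Tnfrsf19, Axin2, Sfrp2 and Wnt5a an antisense gene overlaps an exon in GENCODE M21, and the strand setting of the counting was not given, so reads of both cannot be told apart.

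Set against all tested genes, 2 of the 9 members separated the name series, Dkk3 with 77.1 points and Fzd2 with 44 points between the highest and lowest share at 100 CPM. Among all tested genes, 6.18% did so, or 547 of 8853. The tested members were found in more cells, with a median of 43.9% at 10 CPM against 29.9% for all tested genes. The comparison is not matched for this. Just under the threshold of 40 points was Sfrp1 with 38.7 points. The same 2 members were called with a level of 30 CPM (10.6% of all tested genes) or 10 CPM (16.3%). They were also the 2 called with thinned reads (7.24%), in the authors' depth-corrected table (6.28%) and with each series left out (3.84% to 5.65%).

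Variation inside series, meaning at least 20% of cells at 100 CPM or more and at least 20% under 10 CPM in 4 or more of 7 series, was met by 5 of 9 members against 28.3% of all tested genes. They were Sfrp1 in 6 series, Wnt5a in 5, and Dkk3, Sfrp2 and Fzd2 in 4 each. The median share of cells at 10 CPM was 43.9% for the 9 tested members and 29.9% for all tested genes, and a gene in few cells cannot meet this rule. With series 2, 4 or 5 left out, the call held for 2 members only, Sfrp1 and Wnt5a, beside 23.7% to 24.4% of all tested genes. Dkk3 also lost it with thinned reads, without series 7 and without the glial cells. Sfrp2 lost it without series 6 and without the glial cells, and Fzd2 without series 3. With all cells and reads, Dkk3 and Fzd2 met both rules. Sfrp1, Sfrp2 and Wnt5a varied inside series without separating them, and Tnfrsf19, Lef1, Axin2 and Apcdd1 met neither.

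**Figure D3:**
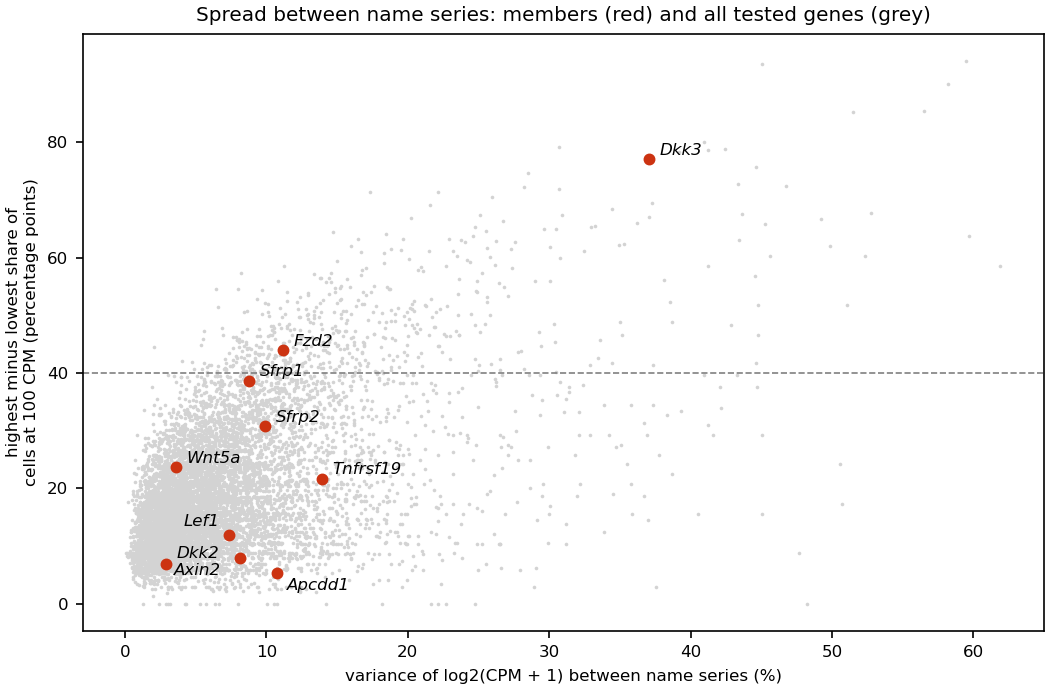
The horizontal axis gives the percentage of the variance of log2(CPM + 1) that lies between name series, and the vertical axis the difference in percentage points between the highest and lowest series share of cells at 100 CPM. Grey points are the 8853 tested genes, red points are the 10 members and the dashed line is at 40 points, with Dkk3 at 37.0% and 77.1 points far from the other members.

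Covariation between members was described by Spearman's correlation of CPM across the cells of each series, summarised by the median over 7 series of 34 to 58 cells. The points share library preparation, depth and the number of genes detected, and no p-value is given. Of 45 pairs, 3 were positive in every series: Tnfrsf19 with Lef1, Sfrp1 with Sfrp2, and Sfrp2 with Fzd2. Among pairs of a tested member with any tested gene, 2.04% were positive in every series. No pair of members was negative in every series, and the same held for all but 0.587% of the member and gene pairs.

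Tnfrsf19 and Lef1 had the highest correlation of the 45 pairs, with a median of 0.38 and a range of 0.09 in series 7 to 0.51 in series 4. Of 8852 genes, Lef1 ranked 1st for Tnfrsf19, and Tnfrsf19 ranked 3rd for Lef1. At 10 CPM, Tnfrsf19 was present in 45 of 89 cells with Lef1, or 50.6% (39.8% to 61.3%), and in 33 cells without Lef1, or 16.1% of them (11.3% to 21.9%). The share was higher in Lef1 cells in series 1 (79.2% against 26.5%), series 2 (57.1% against 2.44%), series 3 (40% against 0 of 23), series 4 (42.9% against 8.33%), series 5 (28.6% against 18.5%) and series 7 (50.0% against 34.4%). In series 6 both shares were close, 20% and 20.8%. Genes detected per cell rose with Lef1, at a median correlation of 0.23, and less evenly with Tnfrsf19, at 0.15. With total reads and genes detected regressed out, the median correlation of Tnfrsf19 and Lef1 was 0.41.

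Since these genes moved together across cells, the 250 bases upstream of their annotated start sites (RefSeq, GRCm38.p6) were searched on both strands for CTTTGAT, or ATCAAAG in reverse, a short sequence that TCF/LEF proteins are known to bind. Of the 10 members, 5 had entries in the promoter table, with 9 windows. A match was found in 1 of them, at an internal start site of Tnfrsf19, near the upstream end of the window. Of 32851 promoter windows of that length, 1053 held a match, or 3.21%. The sequences are printed 5′ to 3′ on the gene's strand, with the match in capitals, for both Tnfrsf19 windows and for the most upstream Lef1 window. A match is a description of the letters and not of binding.
Tnfrsf19, internal start site, chr14:61037988-61038237, minus strand: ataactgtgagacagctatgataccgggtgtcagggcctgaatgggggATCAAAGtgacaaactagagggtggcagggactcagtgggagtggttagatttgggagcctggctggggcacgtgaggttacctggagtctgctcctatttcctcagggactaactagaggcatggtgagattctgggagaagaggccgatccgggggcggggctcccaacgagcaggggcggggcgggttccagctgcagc
Tnfrsf19, upstream start site, chr14:61046856-61047105, minus strand: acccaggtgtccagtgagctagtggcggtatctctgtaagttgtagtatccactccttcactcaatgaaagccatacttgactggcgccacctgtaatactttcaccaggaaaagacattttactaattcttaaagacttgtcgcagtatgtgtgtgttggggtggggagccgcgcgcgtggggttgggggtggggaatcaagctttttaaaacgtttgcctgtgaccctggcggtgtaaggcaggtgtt
Lef1, upstream start site, chr3:131110047-131110296, plus strand: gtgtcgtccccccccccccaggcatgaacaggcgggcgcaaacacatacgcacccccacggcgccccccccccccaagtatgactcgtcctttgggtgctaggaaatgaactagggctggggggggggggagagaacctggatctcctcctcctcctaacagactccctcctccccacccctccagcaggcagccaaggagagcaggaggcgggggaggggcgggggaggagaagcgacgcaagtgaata

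Sfrp1 and Sfrp2 had a median correlation of 0.31, from 0.05 in series 2 and series 3 to 0.50 in series 4, and Sfrp2 ranked 1st of 8852 genes for Sfrp1. The median of Sfrp2 was 928 CPM in the cells with Sfrp1 at 10 CPM and 188.9 CPM in the 90 others, and it was higher in cells with Sfrp1 in every series. The medians were 1686 and 1398 CPM in series 3, 1170.1 and 8.56 CPM in series 4, and 2613 and 307 CPM in series 7. Sfrp2 and Fzd2 had a median of 0.22, between 0.09 and 0.34. Fzd2 reached 10 CPM in 67.6% (61.4% to 73.4%) of the cells with Sfrp2 and in 45.5% (30.4% to 61.2%) of the 44 without. These shares pool all series. The share was higher with Sfrp2 in series 2, 3, 4, 6 and 7. Series 5 went the other way, with 66.7% against 5 of 7 cells, and series 1 had no cell without Sfrp2. In cells without Mki67 and Top2a, genes of dividing cells, the correlation of Sfrp2 and Fzd2 had a median of 0.33 but was no longer positive in every series.

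The lowest correlations joined the Sfrp genes with Lef1 and Apcdd1. Sfrp2 and Lef1 had a median of -0.29, negative in 6 of 7 series, from -0.58 in series 4 to 0.10 in series 1. The median was -0.18 with total reads and genes detected regressed out, -0.19 in cells without Mki67 and Top2a, and -0.17 without series 3, series 4 or series 7. Of 8852 genes, Lef1 was 2nd from the lowest for Sfrp2, and Sfrp2 2nd from the lowest for Lef1. At 10 CPM, Lef1 was present in 67 of 250 cells with Sfrp2, or 26.8% (21.4% to 32.7%), and in 22 of 44 cells without, or 50.0% (34.6% to 65.4%). The contrast came from series 4 (23.3% against 7 of 8 cells), series 3 (32.4% against 4 of 4), series 2, series 6 and series 7. Series 5 went the other way, with 22.2% against 1 of 7 cells, and series 1 had no cell without Sfrp2. Sfrp2 and Apcdd1 had a median of -0.25 and Sfrp1 and Lef1 of -0.25, each negative in 6 of 7 series, and Sfrp1 and Apcdd1 of -0.24, negative in 5. Over all cells at once, without regard to series, these 3 values were -0.13, -0.17 and -0.08.

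**Figure D4:**
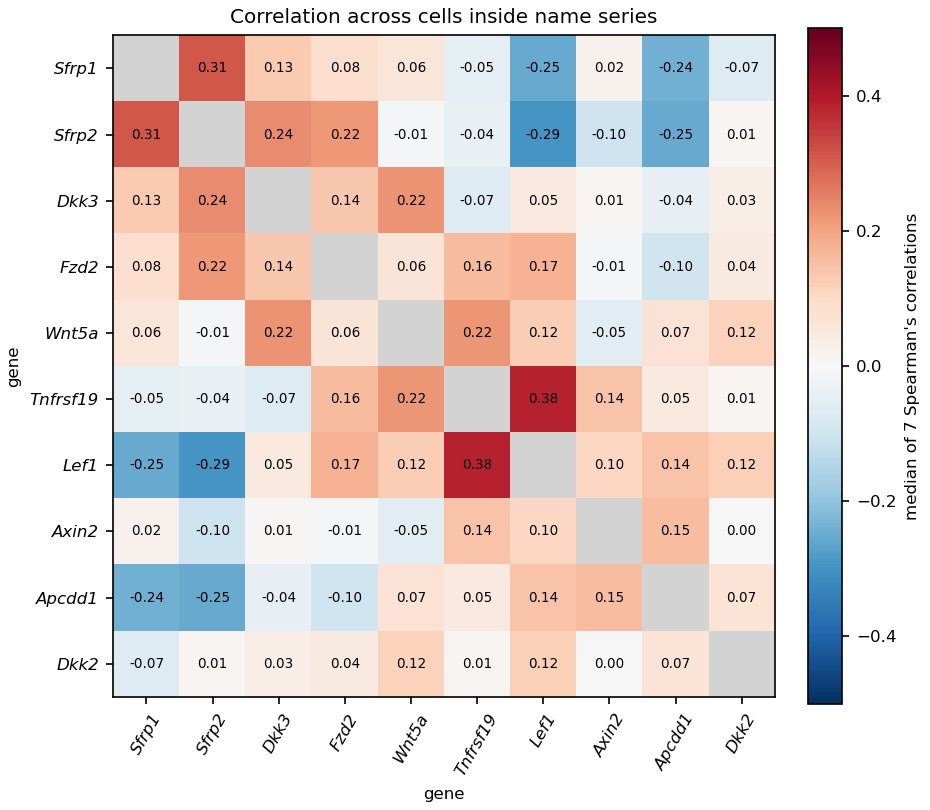
Each square gives, for the gene on the vertical and the gene on the horizontal axis, the median over 7 name series of Spearman's correlation across cells, with red for positive and blue for negative values. Tnfrsf19 with Lef1 is highest at 0.38, and Sfrp2 with Lef1 is lowest at -0.29.

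Axin2 and Lef1 are both tied to the beta-catenin branch. Their median correlation was 0.10, from -0.04 to 0.25, and 17 cells had both at 10 CPM, or 43.6% of the 39 Axin2 cells and 19.1% of the 89 Lef1 cells. Over all cells, Lef1 was present in 30.3% and Axin2 in 13.3%. Another feedback gene, Nkd1, whose protein is an inhibitor induced by the pathway, followed Lef1 more closely and was chosen here after its values were seen. The median correlation of Lef1 and Nkd1 was 0.36, from 0.14 to 0.62, the 6th highest for Lef1. At 10 CPM, Nkd1 was present in 49 of 89 cells with Lef1, or 55.1% (44.1% to 65.6%), and in 32 cells without Lef1, or 15.6% of them (10.9% to 21.3%), and the share was higher in Lef1 cells in each of the 7 series. Nkd1 with Axin2 had a median of 0.10, from -0.15 to 0.54.

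**Figure D5:**
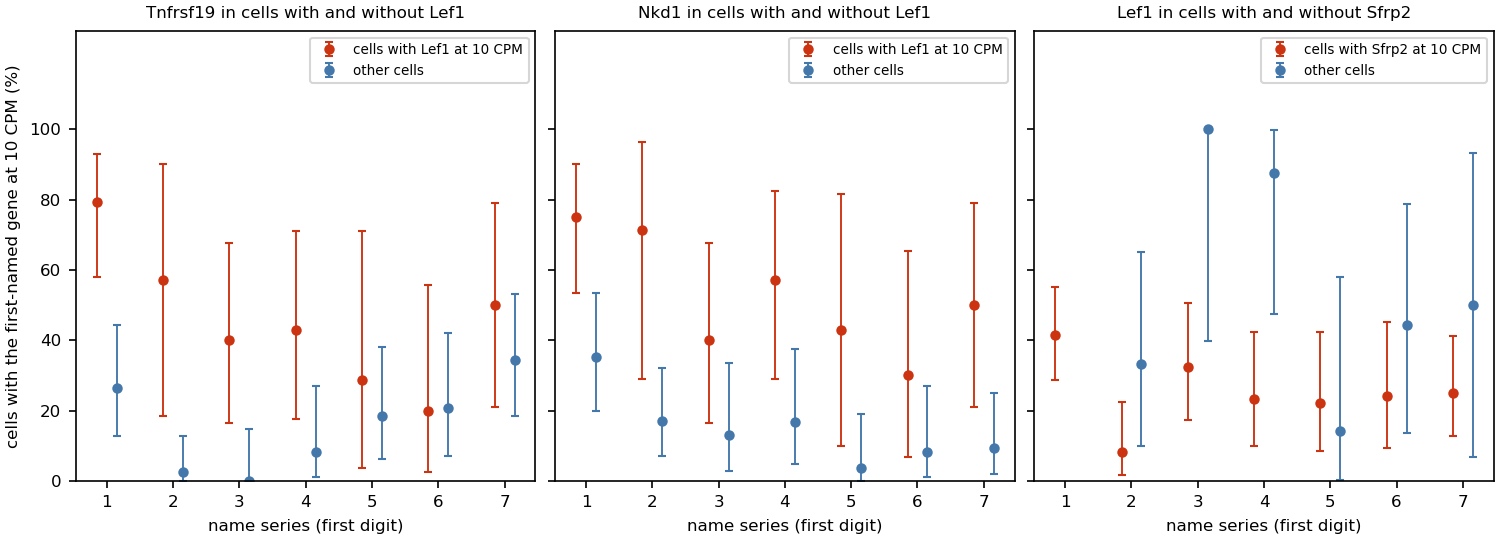
Points give the percentage of cells with the first-named gene of each title at 10 CPM or more (vertical axis) in cells with (red) and without (blue) the other gene, by name series (horizontal axis), with exact 95% intervals for counting error. In the plot of Nkd1 the red point is above the blue one in all 7 series, whereas Tnfrsf19 has 20% against 20.8% in series 6, and Lef1 lies lower in the cells with Sfrp2 except in series 5.

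Some members followed a list of marker genes inside series. With the mean log2(CPM + 1) of the 15 mesenchyme markers, Lef1 had a median correlation of 0.30, from 0.13 to 0.53, and Axin2 of 0.18, from 0.11 to 0.31, both positive in every series. Of the tested genes outside that list, 4.24% were positive in every series. Axin2 had no read in 37 of 38 cells of series 3 and in 41 of 44 cells of series 7. Its sign thus rests on 1 cell in series 3 and on few cells in series 7. Fzd2 had a median of 0.26 but was negative in 2 series, and Sfrp2 and Dkk3 had medians of -0.03 and -0.02. With the smooth muscle list and with the list for dividing cells, no member had the same sign in all 7 series. Genes detected per cell had positive correlations in every series with Lef1, Wnt5a and Dkk2, with medians of 0.23, 0.25 and 0.15.

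The genes with the most similar pattern were taken as the 3 with the highest median correlation among tested genes that were positive in each series giving a value. For Sfrp2 they were Fbln5 (0.42) and the genes Gpc3 (0.41) and Ptn (0.39), which encode an elastic fibre protein, a glypican and the growth factor pleiotrophin. Gpc3 was also among the leading genes of Dkk3 (0.29, after Abi3bp at 0.38 and Fndc3b at 0.34) and of Fzd2 (0.25, before Ankib1 at 0.24 and Diexf at 0.23). Lef1 had Igf1 (0.41), an insulin-like growth factor gene, and Chst11 (0.39) before Tnfrsf19. Tnfrsf19 had Sall3 and Phax (both 0.32) after Lef1. For Sfrp1, Crebrf (0.26) came after Sfrp2.

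Apcdd1 was followed by Tk1 (0.32), which encodes the thymidine kinase of dividing cells, Vars (0.30) and Tubb2b (0.27). Wnt5a was followed by Vamp4 (0.30), 1700017B05Rik (0.28) and Cnpy3 (0.26), and Dkk2 by Prpf19 (0.34), Lpar1 (0.33) and Mto1 (0.29). Axin2 had Aldh1a1 (0.28, a value given by 3 series only), Smim19 (0.27) and Pacrgl (0.22). These are leading values out of 8852 genes, and with 34 to 58 cells a series they carry a wide counting error.

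Other Wnt pathway genes were taken from fixed lists, 45 of which were tested. Of 18 further Wnt ligands listed, 9 were rows and 1 was tested, Wnt11 in 17.0% of cells. Wnt5b and Wnt16 reached 10 CPM in 9.86% and 9.18%, so of the 10 ligand rows Wnt5a was found in the most cells. Of 15 receptors and co-receptors, 10 were tested and 1, Fzd1, separated the series by 43 points. Fzd1 reached 10 CPM in 62.2% of cells, Ryk in 56.5% and the co-receptor gene Lrp6 in 50.7%. Only these 3 of the 10 varied inside series, beside 28.3% of all tested genes. Among extracellular factors, 4 of 15 rows were tested and none separated the series at 100 CPM. They included Wls, needed for Wnt secretion, in 73.1% of cells, the Sfrp relative Frzb in 33% and the R-spondin gene Rspo3 in 30.3%.

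Intracellular transducers varied least between series of the 5 lists, with 20 of 23 tested, none separating and a median between-series share of variance of 3.31%. Ctnnb1, the beta-catenin gene, reached 10 CPM in 100% of cells with a mean of 1085 CPM, Csnk1a1 in 87.8% and Gsk3b in 82%. Inside series, 3 of the 20 tested transducers and 1 of the 4 tested extracellular genes varied, beside 28.3% of all tested genes. Of the feedback and target genes, 10 of 13 rows were tested, 1 separated the series and 5 varied inside them. The separating gene was Tcf4 with 52.5 points, which encodes an E-protein and not the TCF/LEF factor of the same former name. Its place on the fixed list thus does not stand for the pathway, and no other feedback or target gene separated the series. Bambi, a pseudoreceptor gene, and Ccnd1, the cyclin D1 gene, were in 71.8% and 69.4% of cells. In all, 2 of the 45 other listed genes, Fzd1 and Tcf4, separated the series, against 6.18% of all tested genes and 2 of 9 members. Among the pairs of a tested member with one of these 45 genes, 12, or 2.96%, were positive in every series, beside 2.04% for all genes. Lef1 with Nkd1 was the highest of the 12. At a level of 10 CPM the separating genes were others, Cd44, Frzb and Wls, beside 16.3% of all tested genes.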

How the data were processed

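A total of 294 cells, each a sample, were sequenced as full-length cDNA (SMARTer v4, Nextera XT, paired reads) per the labels' protocols. The authors deposited a table of raw counts and a second table of a normalised score named SCT, whose totals per cell were nearly equal. The submitters' processing notes name HISAT2 2.1.0, featureCounts, Seurat and mm10 without role or order, and the annotation and strand setting are not given in the sources used here. Each column was matched to 1 cell by its title, and 0 columns were identical or duplicated.

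Counts were scaled to CPM. Total reads were 34046 to 3033857 per cell, so 10 CPM rests on few reads in the shallowest cells. Tested genes reached 10 CPM in at least 10% of cells. Separation meant a difference of 40 points or more between series in the share of cells at 100 CPM. Between-series variance used log2(CPM + 1), and correlations were Spearman's within series. Alternatives included 1 read, 30 CPM, 30 and 50 points, the deposited score table, cells thinned to 250000 reads (25 shallower cells left out) and each series left out. Leaving out 13 cells with glial markers was added after the data were seen. Besides the members, the text names the 3 genes of highest mean in each pathway list, separating genes and each member's 3 most similar genes, along with cell type markers. A few genes named by this rule are left out of the text. The members and lists were chosen with earlier results of these data known. No doublet caller was run, since cells were photographed on the chip per the protocols in the labels. Coordinates come from GENCODE M21 (GRCm38) and sequences from RefSeq. Python 3.11.15, pandas 2.3.3 and scipy 1.17.1 were used, and the code was tested on simulated data.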

Additional observations from a re-analysis of the deposited data

How the results depend on the processing

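No paired analysis was possible because the cells form 1 group. At 100 CPM in place of 10 CPM, 2 members in place of 4 were present in 50% of cells. With a threshold of 30 points, 4 members separated the series (16.3% of all tested genes), and with 50 points 1 did, Dkk3 (2.11%). Dkk3 and Fzd2 were the 2 called at 10 CPM (16.3%) and 30 CPM (10.6%), in the score table (6.28%) and with thinned reads (7.24%). They were also the 2 called with each series left out (3.84% to 5.65%) and without the glial cells (6.27%). A rule on series means, the highest at least 4 times the lowest with 10 CPM added to both, called Dkk3, Sfrp2 and Tnfrsf19, beside 27.9% of all tested genes. With 0 reads in place of under 10 CPM, 1 member in place of 5 varied inside series (21.1% of all tested genes). Without the glial cells 3 did (28.7%), with thinned reads 4 (29.4%) and with 10% of cells on each side 7 (59.6%). With 1 series left out, 2 to 5 did (23.6% to 26.2%), and 2 without series 2, 4 or 5. The rule still asked for 4 series there, so members that met it in exactly 4 had to drop out without any of these. Members positive with the mesenchyme or another list in every series numbered 2, or 2 to 4 with 1 series left out (4 without series 5 or 7). Without the glial cells, 1 gene of the other lists, the E-protein gene Tcf4, separated the series in place of 2 (6.27% of all tested genes). At 10 CPM 3 did, Cd44, Frzb and Wls (16.3%). The count of 3 positive pairs became 3 or 4. For the pairs and the marker lists, the share over all genes was not computed under these alternatives. The causes were not tested. For single members, 26 of 110 values of between-series variance moved by more than a set margin, as did 23 of 120 shares of cells and 7 of 120 share ranges. Of the median correlations of 8 named pairs and 2 list results, 2 values did. Margins came from the spread over left-out series for variance, the counting interval for shares and share ranges, and the spread over series for correlations. The last is wide. Shares and share ranges also included other read or CPM levels, which differ by definition. These counts thus cannot be set beside each other. Median correlations near 0 among the other pairs changed sign under several alternatives, and nothing is read from them. Dkk2, Apcdd1 and Axin2 rest on few cells.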
